A study of Mus musculus with 10 samples.

Results

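The EGF receptor and HGF-MET growth signals are 10 genes of 23535 mouse loci with values. They were chosen by name and not by their level: the receptor genes Egfr, Erbb2, Erbb3 and Met, the ligand genes Egf, Tgfa, Hbegf and Hgf, the feedback inhibitor gene Errfi1 and the protease gene Hgfac. Each symbol was found at 1 locus. All values come from liver RNA of mice at postnatal day 90 on a mixed C57/B6 and 129 background, taken 40 h after partial hepatectomy, an operation that removes most of the organ. The KO group had 3 libraries from Arid1a Fl/Fl; Alb-cre mice, in which the albumin promoter drives Cre recombinase in hepatocytes. The WT group had 3 libraries from Arid1a Fl/Fl mice without Cre, so both groups carry the floxed alleles. Arid1a encodes a DNA-binding component of SWI/SNF, which remodels chromatin. The 4 libraries from before hepatectomy, 2 KO and 2 WT, were not analysed here, so no value says how hepatectomy itself changed a gene. Nothing in the labels ties each library to its own mouse, so the p-values reflect spread between libraries that may be partly technical.

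After loss of liver mass, quiescent hepatocytes re-enter the cell cycle, and the EGF receptor and MET are the receptor tyrosine kinases best known for carrying the mitogenic signals. EGF, TGF-alpha, HB-EGF, amphiregulin and related ligands bind the EGF receptor, while neuregulins bind ERBB3, which has a weak kinase and signals by pairing with a partner receptor. HGF is made mainly by stellate and endothelial cells as an inactive precursor, is cleaved by the HGF activator (the product of Hgfac) and other proteases, and then binds MET on hepatocytes. ERRFI1 (also called MIG6) binds the activated EGF receptor kinase and shuts it off.

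Levels are FPKM as the authors deposited them, which are scaled for transcript length, so that levels of different genes can be set side by side. The floxed gene was checked first. Arid1a had 4.41, 5.57 and 6.15 FPKM in KO libraries, against 8.68, 8.45 and 8.49 FPKM in WT libraries, and the labels and the values went together in all 6. Its mean was 5.38 ± 0.882 FPKM in KO and 8.54 ± 0.121 FPKM in WT (SD, n = 3 each), and its limma adjusted p was 0.207. The table gives 1 value per locus and none for the deleted exons, and cells without Cre keep the gene. Hepatocyte markers were abundant in all libraries, with 44412 to 55007 summed FPKM over 10 markers in KO and 50502 to 55787 in WT. The 14 sinusoidal endothelial markers (such as Eng and Clec4g) summed to 107 to 166 FPKM in KO and 112 to 141 FPKM in WT. The 12 Kupffer cell markers (such as Cd5l and C1qc) summed to 133 to 223 FPKM in KO and 117 to 180 FPKM in WT. The 10 cholangiocyte markers (such as Spp1) summed to 24.0 to 36.8 FPKM in KO and 16.6 to 26.6 FPKM in WT. The 9 neutrophil markers (such as S100a8 and S100a9) summed to 14.8 to 30.1 FPKM in KO and 11.8 to 38.0 FPKM in WT, and the 10 T, B and NK cell markers to at most 1.18 FPKM in KO and 1.39 FPKM in WT. None of these markers found in the table was at 0 in all 6 libraries. KO replicate 2 lay far from the other 5 libraries on principal component 2 (27.3% of variance). Its 16 mitosis genes summed to 17.98 FPKM, against 378 and 630 FPKM in KO replicates 1 and 3 and 12.9 to 56.1 FPKM in WT. In bulk liver, fewer cells of a type and less RNA per cell cannot be told apart.

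The 250 bases before the transcription start are shown for the 3 genes whose KO and WT libraries did not overlap, the control regions nearest to these transcripts. The sequences are RefSeq's for GRCm38.p6 (mm10), 5′ to 3′ on the gene's strand, which is the plus strand for all 3. Capitals mark each GC box (GGGCGG on either strand), the short element bound by SP1-type factors. The windows are chr11:16751953-16752202 for Egfr, chr6:86194972-86195221 for Tgfa and chr4:150854820-150855069 for Errfi1.
Egfr: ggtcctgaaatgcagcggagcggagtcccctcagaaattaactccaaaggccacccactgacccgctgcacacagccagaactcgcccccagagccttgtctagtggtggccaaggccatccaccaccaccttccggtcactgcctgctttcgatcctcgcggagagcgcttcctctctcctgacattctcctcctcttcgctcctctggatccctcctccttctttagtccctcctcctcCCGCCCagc
Tgfa: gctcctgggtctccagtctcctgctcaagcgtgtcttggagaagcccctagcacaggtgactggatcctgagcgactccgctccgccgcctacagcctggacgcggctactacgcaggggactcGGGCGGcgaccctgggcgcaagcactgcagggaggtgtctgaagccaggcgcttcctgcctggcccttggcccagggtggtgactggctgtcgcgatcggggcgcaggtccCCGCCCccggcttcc
Errfi1: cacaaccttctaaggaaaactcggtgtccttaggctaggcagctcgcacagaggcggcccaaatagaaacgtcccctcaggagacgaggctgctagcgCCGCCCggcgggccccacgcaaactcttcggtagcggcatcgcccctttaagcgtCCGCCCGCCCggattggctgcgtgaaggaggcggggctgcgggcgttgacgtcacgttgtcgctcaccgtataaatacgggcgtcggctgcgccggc

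The Egfr window held 1 GC box, the Tgfa window 2 and this Errfi1 window 3, of which 2 overlap each other. Of 32851 RefSeq windows of the same length, 32.7% held at least 1 and 8.47% at least 3. The TATA box letters TATAAA, searched on both strands, were found in the Errfi1 window and in 12.4% of all windows, but not in the Egfr or Tgfa windows. The letters of a cyclic AMP response element, TGACGTCA, were also found for Errfi1, and 1.55% of all windows held them. The AP-1 letters TGANTCA, held by 6.75% of windows, were in none of the 3 windows. GC content was 60.8% for Egfr, 69.2% for Tgfa and 64.8% for Errfi1, with a median of 52.4% over all windows. These counts describe letters in a window and say nothing of binding. RefSeq windows were found for 8 of the 10 genes, and Errfi1 has a further window upstream that is not shown.

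The genes of this pathway ranged in regenerating liver from a feedback inhibitor among the abundant transcripts to ligands with barely any signal. Errfi1 had the highest mean over the 6 libraries, 307 FPKM, above 98.4% of tested genes. Egfr came next with 142 FPKM, followed by Hgfac with 55.6 FPKM. Erbb3 averaged 21.6 FPKM, Met 17.7 FPKM, Hgf 13.2 FPKM and Tgfa 6.56 FPKM. Hbegf, Erbb2 and Egf averaged 0.464, 0.317 and 0.180 FPKM, and all 3 were under 1 FPKM in every library. In this order Erbb3 and Met overlapped in both groups, as did Hbegf, Erbb2 and Egf. Egfr and Hgfac overlapped among KO libraries and not among WT libraries, as did Met with Hgf and Hgf with Tgfa, and all other neighbours were separate in both groups.

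**Figure D1:**
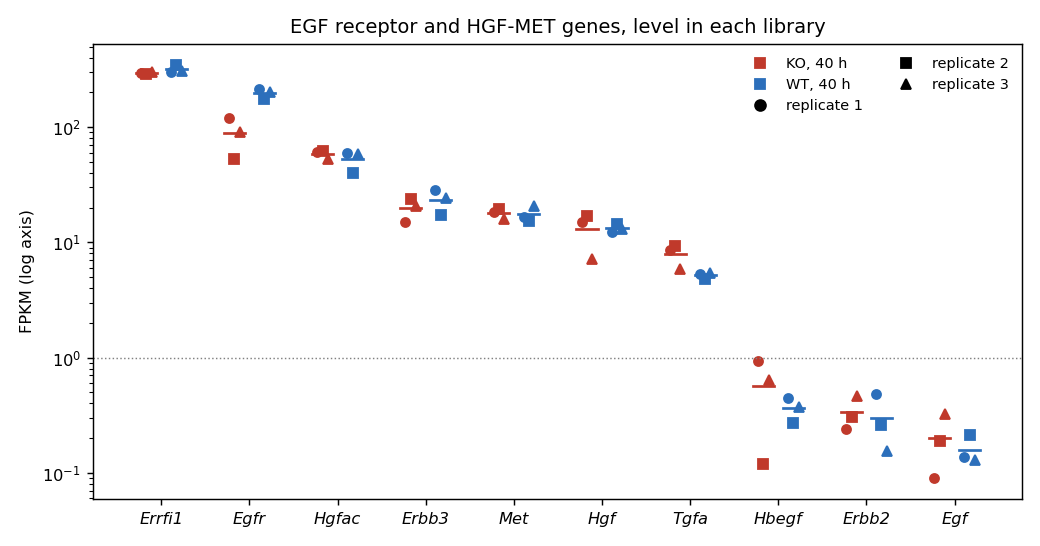
FPKM of the 10 genes on a log axis, with KO libraries (red) left of WT libraries (blue) for each gene, a marker shape per replicate, horizontal bars at group means and a dotted line at 1 FPKM. Errfi1 is highest, the 3 KO points of Egfr lie below the 3 WT points, and Hbegf, Erbb2 and Egf lie under 1 FPKM in all 6 libraries.

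Setting KO against WT asks which of these signals differ in regenerating liver when hepatocytes lack Arid1a. Egfr was lower and Tgfa was higher in all 3 KO libraries, but neither passed the test across all genes, and the MET side of the pathway overlapped between the groups. Of the 10 genes, 7 had a mean of at least 1 FPKM and entered limma on log2(FPKM + 1), where a log2 difference understates the change of genes near 1 FPKM. None of the 7 had an adjusted p under 0.05, against 0.119% of the 10956 genes tested, of which 0.0183% were called higher and 0.1% lower in KO. At an unadjusted p under 0.05 there were 2 of 7, Egfr and Tgfa, against 15.2% of all genes. The groups were fully separate for 3 of 7 (Egfr, Tgfa and Errfi1), against 22.1% of all genes. The median log2 difference was -0.10 over the 7 genes and 0.15 over all genes tested, and the value over all genes was 0.02 after median-of-ratios rescaling. An exact permutation test over the 20 arrangements of these libraries cannot give a p below 0.1.

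Among receptors, Egfr (chromosome 11, 16752203 to 16913907, mm10, plus strand) encodes the EGF receptor itself. It had 121, 52.4 and 90.9 FPKM in KO replicates 1, 2 and 3, against 215, 174 and 201 FPKM in WT replicates 1, 2 and 3. Every KO library lay below every WT library, and KO replicate 2 was the lowest of all. The mean was 88.1 ± 34.4 FPKM in KO and 196 ± 20.9 FPKM in WT (SD, n = 3 each), a ratio of KO to WT of 0.448. The log2 difference was -1.22 (SE 0.31, 95% interval -1.97 to -0.48, limma p = 0.00622, adjusted p = 0.208), and the exact two-sided permutation p was 0.1. A lower log2 difference was found for 1.497% of tested genes and a smaller p for 2.96%. Non-overlap with KO lower was found for 5.44% of all genes tested, or 596 genes, and for 1059 after median-of-ratios rescaling and 1121 after quantile normalization. Relative to the median of all genes, the difference was -1.37. The annotation places an antisense gene, Egfros, within the locus, and its reads cannot be told apart without strand. Without KO replicate 2 the log2 difference of Egfr was -0.89 (limma adjusted p = 0.0928), or -1.01 relative to the median of all genes.

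Erbb3 (chromosome 10, 128569368 to 128589501, minus strand), the neuregulin receptor, had 15.0, 23.8 and 20.8 FPKM in KO libraries, against 28.2, 17.4 and 24.1 FPKM in WT libraries. The groups overlapped. Its log2 difference was -0.21 (95% interval -0.79 to 0.37, adjusted p = 0.683). Erbb2 (chromosome 11, 98412484 to 98437716, plus strand), the ligandless partner receptor, had 0.238, 0.305 and 0.465 FPKM in KO libraries, against 0.480, 0.262 and 0.153 FPKM in WT libraries. Its locus overlaps that of Mien1, it was too low for the test, and its groups overlapped (exact permutation p = 0.8, two-sided). The summed FPKM of Egfr, Erbb2, Erbb3 and Erbb4 was 136, 76.5 and 112 in KO libraries, against 243, 191 and 225 in WT libraries. Egfr made up 88.8%, 68.5% and 80.8% of that sum in KO libraries and 88.2%, 90.7% and 89.2% in WT libraries, so its share overlapped through KO replicate 1. The Erbb3 share was highest in KO replicate 2, at 31.1%, and was 9.09% to 11.6% in WT.

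Met (chromosome 6, 17463957 to 17573980, plus strand), the HGF receptor, had 18.4, 19.4 and 16.02 FPKM in KO libraries, against 16.4, 15.3 and 20.8 FPKM in WT libraries. The lowest and the highest library were both WT. The log2 difference was 0.04 (95% interval -0.36 to 0.44, adjusted p = 0.921), and its sign turned under median-of-ratios rescaling (-0.10). The ratio of Met to Egfr within a library does not depend on scaling between libraries. It was 0.152, 0.371 and 0.176 in KO libraries, against 0.0765, 0.0880 and 0.103 in WT libraries, and all KO values lay above all WT values. Egfr is its denominator, so the ratio is not independent of the lower Egfr level already given.

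**Figure D2:**
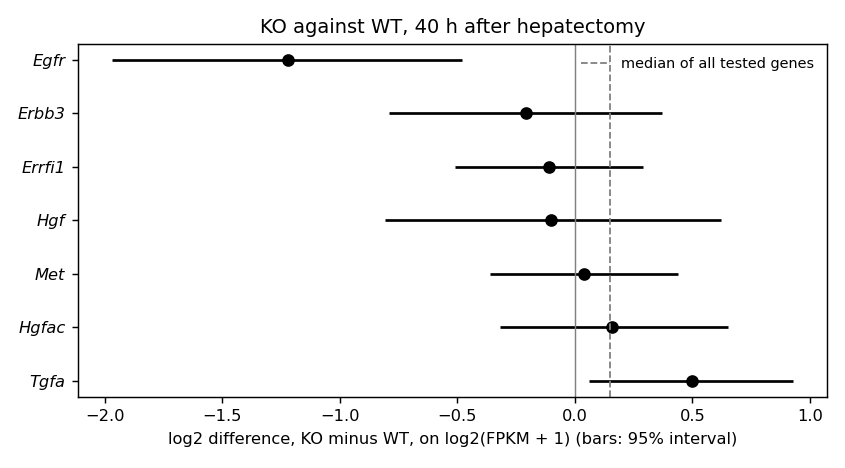
Log2 difference (KO minus WT, on log2(FPKM + 1)) of the 7 tested genes with 95% intervals from limma. The solid line marks 0 and the dashed line the median of all tested genes, 0.15. The intervals of Egfr (-1.97 to -0.48) and Tgfa (0.06 to 0.93) lie on either side of 0, and the other 5 intervals span it.

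Among ligands, Tgfa (chromosome 6, 86195251 to 86275449, plus strand), which encodes TGF-alpha, was the most abundant EGF receptor ligand transcript. It had 8.58, 9.25 and 5.85 FPKM in KO libraries, against 5.36, 4.84 and 5.45 FPKM in WT libraries. Every KO library lay above every WT library, though KO replicate 3 was only just above the highest WT library. The mean was 7.89 ± 1.80 FPKM in KO and 5.22 ± 0.329 FPKM in WT (SD, n = 3 each), a ratio of 1.51. The log2 difference was 0.50 (SE 0.18, 95% interval 0.06 to 0.93, limma p = 0.0312, adjusted p = 0.306), and the exact permutation p was 0.1. Non-overlap with KO higher was found for 16.7% of all tested genes, or 1828 genes, and for 876 after median-of-ratios rescaling and 822 after quantile normalization. After median-of-ratios rescaling the log2 difference was 0.36 and the groups overlapped.

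Egf (chromosome 3, 129677575 to 129755322, minus strand) had 0.0897, 0.189 and 0.326 FPKM in KO libraries, against 0.136, 0.211 and 0.129 FPKM in WT libraries. Its locus overlaps that of 6330410L21Rik, so its few reads are uncertain. Hbegf (chromosome 18, 36504927 to 36515805, minus strand), which encodes the heparin-binding ligand, had 0.940, 0.119 and 0.635 FPKM in KO libraries, against 0.448, 0.272 and 0.372 FPKM in WT libraries. KO replicates 1 and 3 were above all WT libraries and KO replicate 2, the KO library lowest in mitosis genes, was below them. Both genes overlapped between the groups, with exact permutation p of 0.7 for Egf and 0.6 for Hbegf. Summed over Egf, Tgfa, Hbegf, Areg, Ereg, Btc and Epgn, the ligand transcripts came to 10.9, 10.2 and 7.89 FPKM in KO libraries, against 6.24, 5.77 and 6.79 FPKM in WT libraries. Tgfa made up 74.2% to 90.9% of the sum in KO and 80.2% to 86.0% in WT. The summed level was therefore set mainly by Tgfa in both groups.

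Hgf (chromosome 5, 16553550 to 16619439, plus strand) had 15.0, 17.1 and 7.24 FPKM in KO libraries, against 12.3, 14.5 and 13.1 FPKM in WT libraries. KO replicates 1 and 2 lay above all WT libraries and KO replicate 3 below them. The log2 difference was -0.10 (95% interval -0.81 to 0.62, adjusted p = 0.890), and without KO replicate 3 it was 0.25. Of the 15 stellate cell and fibroblast markers, which mark a main source of this ligand, the summed FPKM was 95.3, 103 and 87.4 in KO libraries and 113, 114 and 91.2 in WT libraries. KO replicate 3 was the lowest KO library in both this sum and Hgf, but WT replicate 3, the lowest WT library in the sum, was the middle one in Hgf. Most single markers of the list, among them Lrat, Des and Pdgfra, were lowest among KO libraries in KO replicate 3. The collagen genes Col1a1 and Col3a1 of the list were highest there. These single markers were named after their values were seen. The sinusoidal endothelial markers summed to 107, 166 and 153 FPKM in KO libraries, against 112, 141 and 122 FPKM in WT libraries, and KO replicate 3 was not the lowest there. The part of either cell type in the Hgf values was not tested. Within the stellate cell and fibroblast list Reln, an extracellular glycoprotein gene, was higher in all KO libraries (limma adjusted p = 0.179). Colec11 and Ecm1 of that list were lower in all KO libraries (limma adjusted p = 0.285 and 0.311). Over all genes tested, 16.7% were higher and 5.44% lower without overlap. Rgs5, a pericyte gene, is the other abundant marker of the list, and Hhip averaged under 1 FPKM. Reln and Colec11 were named after their values were seen.

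Among the regulators, Errfi1 (chromosome 4, 150855091 to 150868880, plus strand) had 296, 290.4 and 299 FPKM in KO libraries, against 302, 348 and 309 FPKM in WT libraries. The groups did not overlap, by a margin of only a few FPKM between KO replicate 3 and WT replicate 1. The mean was 295 ± 4.56 FPKM in KO and 319.5 ± 25.1 FPKM in WT (SD, n = 3 each). The log2 difference was -0.11 (95% interval -0.51 to 0.29, adjusted p = 0.767). The ratio of Errfi1 to Egfr was 2.45, 5.55 and 3.29 in KO libraries, against 1.40, 2.01 and 1.54 in WT libraries, and it was higher in every KO library. The ratio of Tgfa to Egfr was 0.0709, 0.177 and 0.0644 in KO libraries, against 0.0250, 0.0279 and 0.0271 in WT libraries, again with no overlap. Both ratios share Egfr as their denominator, as does that of Met to Egfr, so they are not independent of its level.

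Hgfac (chromosome 5, 35041553 to 35048436, plus strand), which hepatocytes express strongly, had 60.9, 61.8 and 52.6 FPKM in KO libraries, against 59.5, 40.1 and 58.8 FPKM in WT libraries. WT replicate 2 was the lowest and the groups overlapped. Its log2 difference was 0.16 (95% interval -0.32 to 0.65, adjusted p = 0.713), and without WT replicate 2 it was -0.02. The ratio of Hgfac to Hgf was 4.07, 3.62 and 7.27 in KO libraries, against 4.83, 2.77 and 4.49 in WT libraries, and also overlapped.

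**Figure D3:**
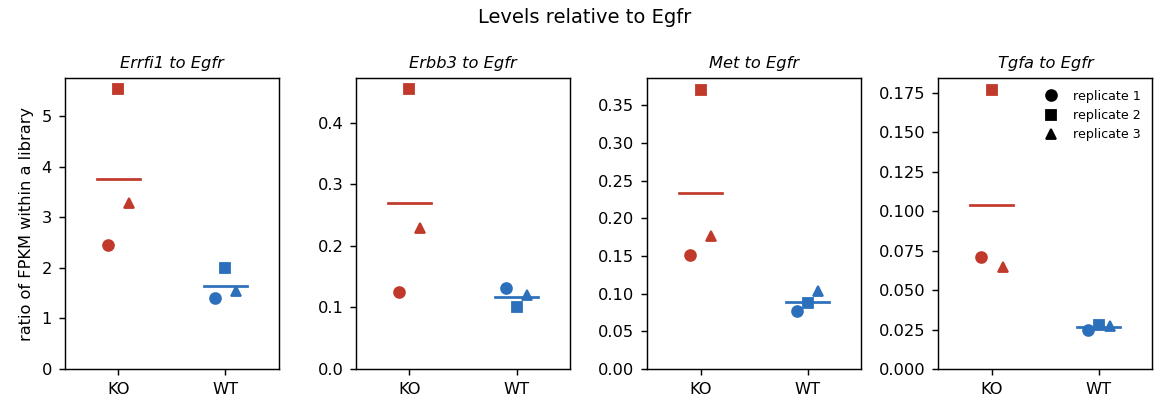
Ratio of the FPKM of Errfi1, Erbb3, Met and Tgfa to that of Egfr within each library, KO (red) left of WT (blue), with a marker shape per replicate, bars at group means and axes that start at 0. KO and WT libraries are separate for Errfi1, Met and Tgfa and overlap for Erbb3, where KO replicate 1 (0.124) lies within the WT range of 0.1002 to 0.131.

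Egfr and the mitosis genes were set side by side in each library, and a relation between them was not tested. KO replicate 2, with 17.98 summed FPKM of mitosis genes, had 52.4 FPKM of Egfr, while KO replicates 1 and 3, with 378 and 630 FPKM of mitosis genes, had 121 and 90.9 FPKM of Egfr. Ube2c, an ubiquitin-conjugating enzyme gene of mitotic exit, had 65.2, 3.08 and 117 FPKM in KO libraries, against 4.51, 1.22 and 4.49 FPKM in WT libraries. Mki67, the proliferation marker, had 41.6, 1.57 and 66.7 FPKM in KO libraries, against 1.82, 1.43 and 6.98 FPKM in WT libraries. The KO library with mitosis genes within the WT range had the lowest Egfr, while the KO library with the most mitosis transcripts was not the one with the most Egfr. The hepatocyte markers had no common order across the KO libraries. Most of them, such as Alb, Ttr and Hnf4a, were lowest among KO libraries in KO replicate 2, while Trf, Apoa1 and Fgb were highest there. Ttr, Hnf4a and Fgb were named after their values were seen. The serum albumin gene Alb had 29106, 16226 and 20933 FPKM in KO libraries, against 22616, 29437 and 25141 FPKM in WT libraries, lowest in KO replicate 2. The transferrin gene Trf had 7985, 9659 and 6095 FPKM in KO libraries, against 7868, 8119 and 7377 FPKM in WT libraries, highest in KO replicate 2. Apoa1, an apolipoprotein gene picked with its values in view, was also highest of the 6 libraries in KO replicate 2, at 10615 FPKM. Of the 10 hepatocyte markers, 9 overlapped between the groups and 1, Serpina1a, was lower in all KO libraries. Over all genes tested, 5.44% were lower without overlap.

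**Figure D4:**
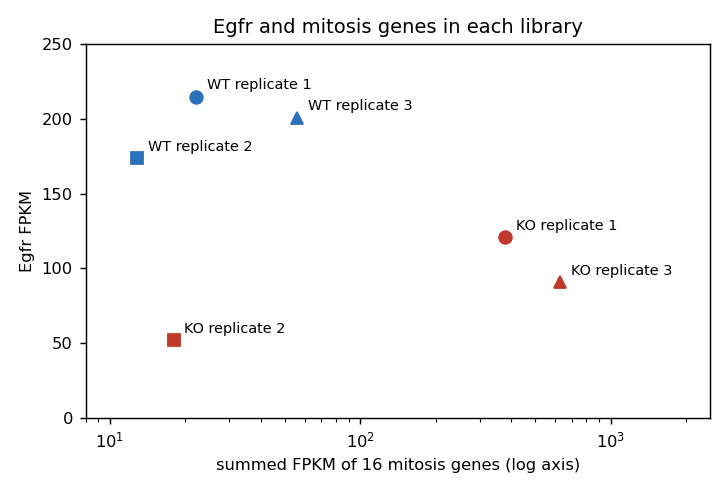
Egfr FPKM (vertical axis) against the summed FPKM of 16 mitosis genes (horizontal log axis), 1 labelled point per library, KO red and WT blue. The 3 KO libraries lie below the WT libraries on the vertical axis, and KO replicate 2, at 17.98 summed FPKM, lies among the WT libraries on the horizontal axis.

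The genes whose pattern over the 6 libraries was most like that of Egfr were Sqle, the squalene epoxidase gene of cholesterol synthesis, with a Pearson r of 0.995, and both loci of Cyp3a41a, a cytochrome P450 gene, with r of 0.992. Reads of the Cyp3a41a loci are uncertain, since they are near-identical copies. Of all tested genes, 67 reached an r of 0.95 with Egfr. For Met the nearest were the zinc finger genes Zfp961 and Zfp512 and the gene Narg2, with r of 0.980, 0.972 and 0.968, and 15 genes reached 0.95. These coefficients are over 6 points that share the KO and WT division and are a description only.

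The other genes of the pathway, in 7 lists, gave no call either. Of 107 genes in the table, 84 were tested, and limma called 0 at an adjusted p under 0.05, with a smallest adjusted p of 0.137. At an unadjusted p under 0.05, 7 were higher and 1 lower in KO, which is 8.33% and 1.19% of them, against 11.2% and 3.99% of all genes tested. That excess of higher genes in the background turns with the scaling: it is 1231 higher and 437 lower on the FPKM scale, 598 and 724 with median-of-ratios rescaling, and 554 and 764 after quantile normalization. KO libraries lay above all WT libraries for 15.5% and below for 3.57%, against 16.7% and 5.44% of all genes. These shares were near or under the background.

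Outside the 10 genes, the EGF family ligand with the smallest p was Nrg1, which encodes the ERBB3 ligand neuregulin 1. It had 2.92, 2.22 and 1.34 FPKM in KO libraries, against 0.233, 0.505 and 0.154 FPKM in WT libraries. All KO libraries were above all WT libraries, with a log2 difference of 1.26 (SE 0.25, limma adjusted p = 0.137), and 2.54 with a pseudocount of 0.1. It passed the filter at 1 FPKM only through its KO values, so its place among tested genes was set by the difference itself. Nrg4, a neuregulin that binds ERBB4, had 12.8, 5.59 and 9.91 FPKM in KO libraries, against 21.4, 17.9 and 9.61 FPKM in WT libraries, with overlap through WT replicate 3 (log2 difference -0.72, adjusted p = 0.383). Without KO replicate 2 the log2 difference was -0.42. Its receptor gene Erbb4 was at or below 0.288 FPKM in all 6 libraries. Areg, the amphiregulin gene, was at the lowest listed value, set to 0, in all WT libraries. It had 0.164, 0.0864 and 0.213 FPKM in KO libraries, and it is named after its values were seen. Epgn and Nrg3 were set to 0 throughout.

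EGF family ligands are made as membrane proteins and released by ADAM proteases, and iRhom proteins carry ADAM17 to the cell surface. Of 12 genes in this list 10 were tested, with a median log2 difference of 0.22, against 0.15 over all genes. Adam10, a ligand sheddase gene, had 14.0, 12.04 and 10.8 FPKM in KO libraries, against 7.89, 9.07 and 10.1 FPKM in WT libraries (limma adjusted p = 0.311). Adam15, a related protease gene, had 1.70, 3.03 and 3.38 FPKM in KO libraries, against 1.61, 0.951 and 0.556 FPKM in WT libraries (adjusted p = 0.265). Rhbdf2, which encodes iRhom2, was lower in KO. It had 1.73, 2.07 and 2.28 FPKM in KO libraries, against 4.73, 3.63 and 2.94 FPKM in WT libraries (log2 difference -0.64, adjusted p = 0.236). Rhbdf1, which encodes iRhom1 and is named after its values were seen, was higher in KO, with 2.36, 2.74 and 2.21 FPKM in KO libraries, against 1.13, 2.05 and 1.56 FPKM in WT libraries (log2 difference 0.43, adjusted p = 0.336). The KO and WT libraries of these 4 genes did not overlap on the FPKM scale, and none passed the test. After median-of-ratios rescaling Adam15 and Rhbdf1 overlapped. On the FPKM scale, 4 of the 10 tested genes were higher and 1 lower in KO without overlap, against 16.7% and 5.44% of all genes.

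In the list of HGF activating proteases and their inhibitors, 7 of 13 genes were tested and the median log2 difference was -0.01. Klkb1, the plasma prekallikrein gene, had 56.4, 33.0 and 38.3 FPKM in KO libraries, against 50.2, 70.0 and 56.6 FPKM in WT libraries (adjusted p = 0.380). F2, the prothrombin gene, had 495, 381 and 466 FPKM in KO libraries, against 556, 518 and 545 FPKM in WT libraries, without overlap but with a log2 difference of only -0.28 (adjusted p = 0.489), and -0.17 without KO replicate 2. Among the MET co-receptors and the related MST1-RON pair, 8 of 10 were tested, with a median of -0.05. The 3 with the smallest p were the integrin gene Itga6, the hyaluronan receptor gene Cd44 and the adhesion receptor gene Icam1. Their log2 differences were 0.50, 0.38 and -0.28, with adjusted p of 0.423, 0.437 and 0.469, and all 3 overlapped between groups. Single libraries weighed on each: without KO replicate 1, Itga6 was at 0.26 and Cd44 at 0.22, without WT replicate 3 Cd44 was at 0.25, and without WT replicate 1 Icam1 was at -0.11.

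Downstream of the receptors, 25 of 26 adaptor and RAS-ERK-PI3K relay genes were tested, with a median log2 difference of 0.04. Nras, a RAS GTPase gene, had 7.49, 6.97 and 6.36 FPKM in KO libraries, against 4.78, 5.88 and 4.70 FPKM in WT libraries (adjusted p = 0.306). It was higher in all KO libraries, but overlapped after median-of-ratios rescaling. Plcg1, the phospholipase C gamma gene, overlapped (log2 difference -0.38, limma adjusted p = 0.367, and -0.23 without WT replicate 3). Of the 25 genes, 3 were higher and 0 lower in KO without overlap, against 16.7% and 5.44% of all genes. In the list of receptor feedback and turnover genes, 17 of 18 were tested with a median of 0.14. Ptpn1, a phosphatase gene, had 8.43, 7.34 and 8.68 FPKM in KO libraries, against 11.0, 12.8 and 9.11 FPKM in WT libraries (adjusted p = 0.333). Socs5, which restrains EGF receptor signalling, was higher in all KO libraries (limma adjusted p = 0.383), but overlapped after median-of-ratios rescaling. Lrig1, a negative regulator of ERBB receptors, overlapped (limma adjusted p = 0.400). Of the 17 genes, 3 were higher and 1 lower in KO without overlap, against the same 16.7% and 5.44%.

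Of the genes that ERK signalling induces or that feed back on it, 15 of 19 were tested, with a median log2 difference of -0.09, against 0.15 over all genes. Myc, a growth-promoting transcription factor gene, had the smallest p. It had 2.68, 9.53 and 4.40 FPKM in KO libraries, against 1.37, 1.88 and 2.04 FPKM in WT libraries (log2 difference 1.11, adjusted p = 0.282). Without KO replicate 2, its highest library, the log2 difference was 0.70. Ccnd1, which encodes cyclin D1, had 140, 84.3 and 91.8 FPKM in KO libraries, against 46.7, 63.5 and 81.9 FPKM in WT libraries (log2 difference 0.71, adjusted p = 0.316). Both were higher in every KO library without passing the test, but Ccnd1 overlapped after median-of-ratios rescaling. Mcl1, a survival gene, overlapped (limma adjusted p = 0.438). Of the 15 genes, 2 were higher and 0 lower in KO without overlap, against 16.7% and 5.44% of all genes. The feedback genes Dusp6 and Spry4, named after their values were seen, overlapped, with 23.0, 17.3 and 7.61 FPKM for Dusp6 in KO libraries, against 17.3, 19.4 and 16.7 FPKM in WT libraries. The log2 difference of Spry4 was -0.09.

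**Figure D5:**
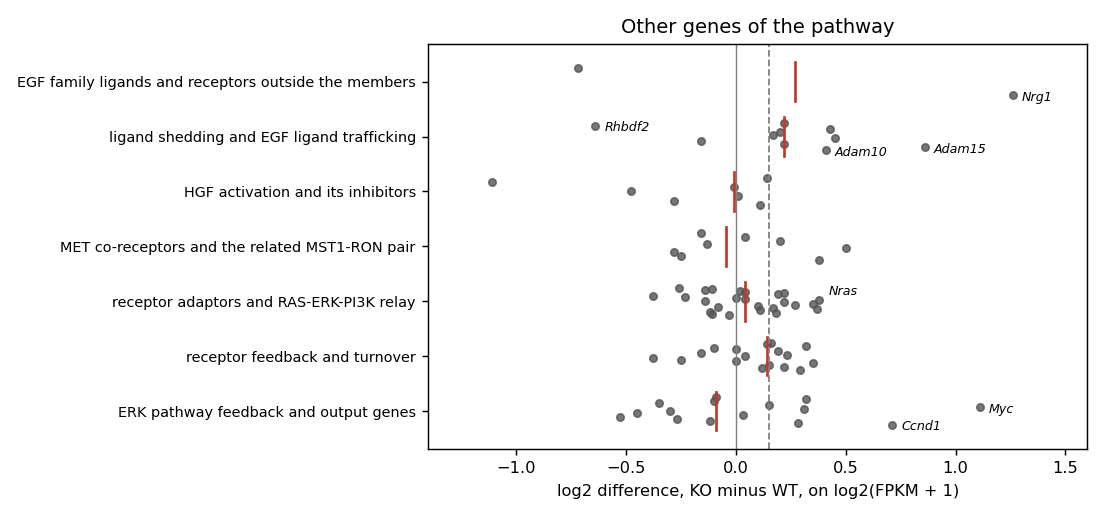
Log2 difference (KO minus WT, on log2(FPKM + 1)) of the tested genes of the 7 other pathway lists, 1 point per gene, with a red bar at each list's median, a solid line at 0 and a dashed line at the median of all genes, 0.15. Each named point has an unadjusted limma p under 0.05, and no gene has an adjusted p under 0.05.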

How the data were processed

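RNA-seq of 6 mouse liver libraries at 40 h after hepatectomy was analysed, 3 KO and 3 WT. Per the labels' protocols, Trizol and miRNeasy extraction preceded Illumina or Nugen library preparation. The submitters' processing notes name TopHat, edgeR, mm9 and mm10 without roles. Strandedness and read totals are not given. Per the file headers, the values the authors deposited are FPKM per locus. Of 23847 loci, 312 carry LOWDATA instead of values and were dropped. A listed 0.001 was set to 0. Locus positions are mm10, printed counted from 1, with strands from GENCODE M21.

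FPKM are not counts, so log2(FPKM + 1) was tested in limma 3.58.1 (R 4.3.3, eBayes with trend, genotype as the only term, two-sided, Benjamini-Hochberg over 10956 genes with a mean of at least 1 FPKM). The threshold was an adjusted p of 0.05. The fit was tested on simulated data. Whole-number steps among genes under 0.3 FPKM (tolerance 0.02 on the log2 scale) put relative depth between 0.836 and 1.20, relative to WT replicate 1, while read totals stay unknown. Intervals from limma cover the spread between libraries.

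The 10 genes and the gene lists were chosen with earlier results of these data known. Named genes are Arid1a, the 10 genes, the 3 with the smallest p of each pathway list, the 2 most abundant of each marker list, and the 3 most like Egfr and Met. Some genes that this rule names are not reported here. Alternatives were other pseudocounts (0.1, 0.5), filters (none, 5 FPKM), scalings, a fit without trend, array weights, a replicate block and leaving out each library. RefSeq GRCm38.p6 synonyms matched 4 listed symbols.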

Additional observations from a re-analysis of the deposited data

How the results depend on the processing

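None of the 7 tested genes was called under any of the 15 alternatives. Hbegf, Erbb2 and Egf were tested only without a filter and were not called there. No gene of the 7 other pathway lists was called under the 10 alternatives run for them (no filter, 5 FPKM, both rescalings and each library left out). Egfr stayed lower in KO under all 15, from -1.49 to -0.89 on the log2 scale with adjusted p from 0.0928 to 0.557. Its KO and WT libraries did not overlap after either rescaling. The other alternatives could not make separate groups overlap. Tgfa stayed higher, from 0.33 to 0.67 (adjusted p 0.203 to 0.590), and overlapped under both rescalings. Erbb3 and Errfi1 kept their sign. Met was -0.10 after median-of-ratios rescaling, -0.12 after quantile normalization and between -0.05 and 0.16 with 1 library left out, Hgf between -0.31 and 0.25, and Hgfac between -0.02 and 0.26. The cause was not tested. Not overlapping were 3 tested genes of the 7, but 2 after median-of-ratios rescaling, 1 after quantile normalization and 3 to 5 with 1 library left out. The share over all genes was 22.1%, but 17.7% after either rescaling and 28.2% to 38.6% with 1 library left out.

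Over all genes, calls numbered 13 (2 higher, 11 lower in KO). They were 5 higher with a pseudocount of 0.1, 0 in all without a filter (0 higher, 0 lower; 1484 higher and 627 lower at an unadjusted p under 0.05), 5 at a filter of 5 FPKM (0 higher, 5 lower), 0 higher after either rescaling, and 29 with array weights (11 higher, 18 lower). With 1 library left out they ranged from 0 (without WT replicate 1) to 242 (without KO replicate 2), higher from 0 to 197 and lower from 0 to 45. Without KO replicate 3 or WT replicate 2 there were 2, and without WT replicate 3 there were 3. Genes that did not overlap numbered 1828 higher and 596 lower. They were 876 and 1059 after median-of-ratios rescaling, 822 and 1121 after quantile normalization, and 377 lower at 5 FPKM. With 1 library left out they ranged from 2275 to 3122 higher and from 794 to 1172 lower.

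The replicate block gave 47 calls (10 higher, 37 lower). The labels state no pairing, so the numbers were not taken to pair the libraries, and the block changed no call among the 7 tested genes. Deviations of same-numbered libraries correlated at -0.0840, 0.155 and 0.163, and those of other pairs at -0.263 to 0.175. With 3 libraries per group these values cannot decide whether libraries were paired. Absolute depth limits Hbegf, Erbb2 and Egf, which hold few reads.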

Other observations

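The genes of amphiregulin (Areg) and of the MST1 receptor RON (Mst1r) were both near the lower end of detection. Areg was set to 0 in all 3 WT libraries and was above 0 in all 3 KO libraries, which 32 loci of the table (0.136%) share, while 47 loci (0.200%) showed the reverse. Mst1r had 0.115 FPKM in KO replicate 2 and was set to 0 in the other KO libraries, against 0.118, 0.426 and 0.130 FPKM in WT libraries. KO replicate 2 was thus only just below WT replicate 1. Without a filter, 879 of 23535 loci were lower in KO without overlap. Its ligand gene Mst1, made by hepatocytes, had 45.1, 52.7 and 40.8 FPKM in KO libraries, against 49.8, 47.6 and 54.2 FPKM in WT libraries, with overlap. All of these were chosen after their values were seen, and Areg and Mst1r were too low to be tested.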
